A study of Homo sapiens with 15 samples.

Results

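The zinc finger genes of human chromosome 19 were chosen by name and position. GENCODE version 44 lists 251 protein-coding genes on this chromosome whose names are ZNF or ZFP followed by digits, 246 of them ZNF and 5 ZFP, among 20033 protein-coding genes in all. The rule that picks the genes uses no measured value, but the set was chosen for study with earlier results of these data known. The clusters described as losing and regaining peaks were chosen by the values themselves, so they are given as a description without a test. Most genes of the set encode C2H2 zinc finger proteins, many with a KRAB domain, which bind DNA through tandem fingers and recruit the co-repressor TRIM28 and the histone methyltransferase SETDB1, largely at transposable elements. They arose by tandem duplication and lie in clusters. Their transcribed bodies are known to carry H3K9 methylation together with H3K36 methylation, and SETD2 is the enzyme that places trimethylation on H3K36. The name rule also takes in ZFP36, which encodes tristetraprolin, an RNA-binding protein with fingers of another type.

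Chromatin accessibility was measured by ATAC-seq in RPTEC, a line of human epithelial cells from the proximal tubule of the kidney, immortalised with hTERT. WT cells, 2 SETD2 knockout clones (KO1 and KO2, each made with CRISPR) and 2 rescue clones (Rescue1 and Rescue2) were profiled in 3 libraries each, 15 in all. All 5 lines carry the hTERT construct and its selection, and each KO and rescue line is 1 clone. The rescue clones express full-length SETD2 with a FLAG tag from a lentivirus and, by the study's clone names, both derive from KO2, so that a difference between rescue and KO1 also holds the difference between the clones. Nothing says that the 3 libraries of a line came from separate cultures, so a p-value measures the spread between these libraries, which may be technical.

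The measurement was the number of bases under called peaks, per library, in the gene body plus 10 kb on each side (the locus), in the 1 kb on each side of the gene start (the promoter) and in the rest of the body. A gene with no peak had no signal past the calling threshold, which does not show closed chromatin, and in bulk cells fewer cells with an open site and less signal per cell cannot be told apart. The lists held 197527 to 266011 peaks, covering 49.4 to 65.2 Mb of the genome, with KO2 replicate 3 and Rescue2 replicate 1 the longest by number of peaks. Promoter peaks were found in every library at 8 of 13 markers of tubule epithelium, including PAX8, KRT8 and EPCAM, at neither CUBN nor AQP1 in any, and at CDH1 in all 3 WT libraries but in only 1 of the 12 others. Of 9 markers of other cell types, 5 (PTPRC, CD3E, PECAM1 and UMOD among them) had no promoter peak in any library, and 4 (CDH5, COL1A1, PDGFRB and NPHS1) had one in every library. The frameshifts in SETD2 exon 3 cannot be read from peak positions, and the SETD2 locus held 4085 ± 342 bases in WT (SD, n = 3), 4698 ± 458 in KO (n = 6) and 5154 ± 679 in rescue libraries (n = 6).

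The zinc finger loci of chromosome 19 held fewer bases under peaks in both KO clones and about the WT number in both rescue clones. Their windows merge into 113 stretches of 10.9 Mb in all. Within these, the 3 WT libraries held 320008, 284651 and 279780 bases, KO1 228825, 232924 and 235169, KO2 242023, 230467 and 258041, Rescue1 279823, 274867 and 293925, and Rescue2 318554, 324121 and 281453. Every KO library lay below every WT library and below every rescue library, while WT and rescue overlapped. The KO mean was 80.7% of the WT mean and the rescue mean 100.2%. Per Mb under peaks in the library, which removes differences in the total length called, the WT mean was 5704 ± 53.5 (SD, n = 3), the KO mean 4260 ± 83.2 (n = 6) and the rescue mean 5077 ± 116 (n = 6), which is 74.7% and 89.0% of WT. On this scale every rescue library, from 4889 to 5207, stayed below every WT library, from 5656 to 5762.

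The rest of chromosome 19 moved in the same direction, by less. Windows of the 1222 other protein-coding genes of the chromosome, some of which overlap zinc finger loci, held 84.7% of the WT value per Mb under peaks in KO and 95.2% in rescue. The 276 ZNF and ZFP genes of other chromosomes held 92.9% and 95.6%. Per Mb under peaks, the other genes of chromosome 19 held 25655 to 25985 bases in WT and 21446 to 22332 in KO libraries, so KO and WT did not overlap there either. Their rescue libraries, at 23803 to 25098, also stayed below every WT library. The ZNF and ZFP genes of other chromosomes held 10061 to 10093.5 in WT, 9145 to 9550 in KO and 9392 to 9853 in rescue libraries. The remaining protein-coding genes of other chromosomes held 672075 to 673081 in WT, 650015 to 659513 in KO and 655000 to 672689 in rescue libraries. Outside the zinc finger windows altogether, chromosome 19 held 1305274 to 1473168 bases in WT, 1202564 to 1387154 in KO and 1369559 to 1644025 in rescue libraries. In these unscaled bases KO and WT overlapped. In bases without scaling the KO means were 91.5% of WT for the other genes of chromosome 19 and 100.4% for the zinc finger genes elsewhere.

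**Figure D1:**
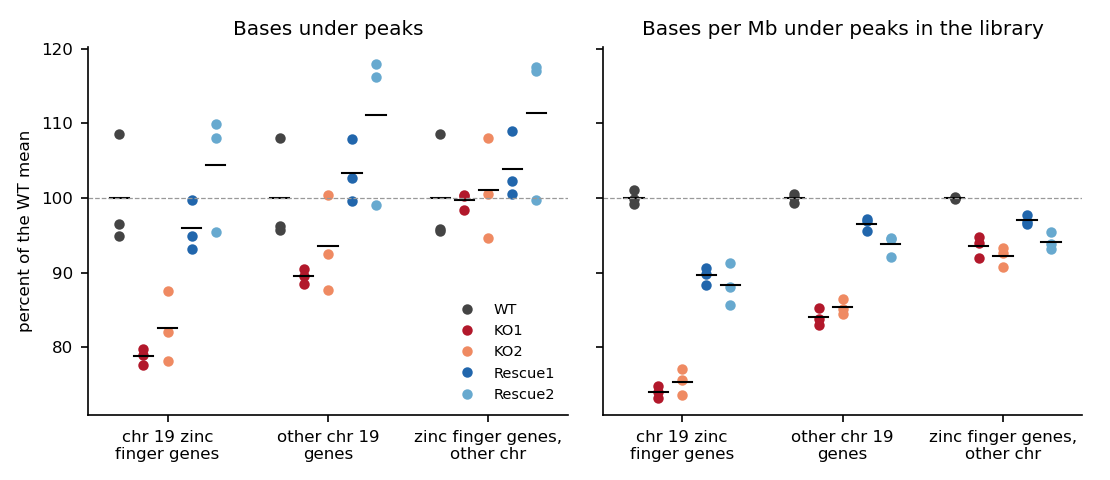
Bases under peaks in 3 gene lists, as a percent of the WT mean, for each library (points) with the line mean (bars). The left panel shows bases as called and the right panel bases per Mb under peaks in the library; the vertical axis does not start at 0. The KO libraries of the chromosome 19 zinc finger genes lie below all WT and rescue libraries in both panels, and the rescue libraries lie below WT in the right panel only.

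Gene by gene, the KO libraries were compared with WT over all genes of the genome by limma on log2(bases + 200), with p-values adjusted over all 18456 genes that averaged at least 200 bases. Of the 251 zinc finger genes, 239 passed this filter, which uses the mean of all 15 libraries, and 12 did not (ZNF177, ZNF560, ZNF208, ZNF676, ZNF729, ZNF98, ZNF99, ZNF723, ZNF728, ZNF835, ZNF154 and ZNF135). In the locus window, 101 of the 239 (42.3%) were lower in KO than in WT and 5 (2.09%) were higher. Of all genes tested, 13.2% were lower and 15.1% higher, and of the 1129 other genes of chromosome 19 tested, 29.2% and 5.85%. The median log2 difference was -0.20 for the zinc finger genes and -0.01 for all genes. Scaling each library to the mean length under peaks moved the median of all genes to -0.12 and that of the zinc finger genes to -0.30. On this scale 179 zinc finger genes were lower and 4 higher, against 40.4% lower and 13.9% higher of all genes. The direction held on both scales. In numbers of genes whose libraries did not overlap, 97 of 239 (40.6%) had every KO library below every WT library, against 11.4% of all genes.

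The comparison of rescue with KO ran the other way. In the locus window 131 of 239 genes (54.8%) were higher in rescue than in KO and 5 (2.09%) were lower. Of all genes tested, 28.2% were higher and 6.83% lower, and of the other genes of chromosome 19, 44.4% and 1.33%. The medians were 0.23 for the zinc finger genes and 0.09 for all genes. This comparison shares the 6 KO libraries with the one before, so the 2 sets of values are not independent. Every rescue library lay above every KO library for 90 genes (37.7%, against 10.4% of all genes), and 70 genes (29.3%, against 4.81%) met both patterns. Against KO2 alone, the parent clone, 104 genes were higher in rescue and 7 lower, with 16.4% and 5.26% of all genes called. Against WT, 17 zinc finger genes were higher in rescue and 16 lower, with 21.8% and 4.14% of all genes called. That last comparison depended on the scale. The median of the zinc finger genes was 0.01 without scaling and -0.14 with libraries scaled to the length under peaks. On the scaled values 5 were higher and 78 lower, against 14.3% higher and 27.7% lower of all genes. The median of all genes moved from 0.08 to -0.07.

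**Figure D2:**
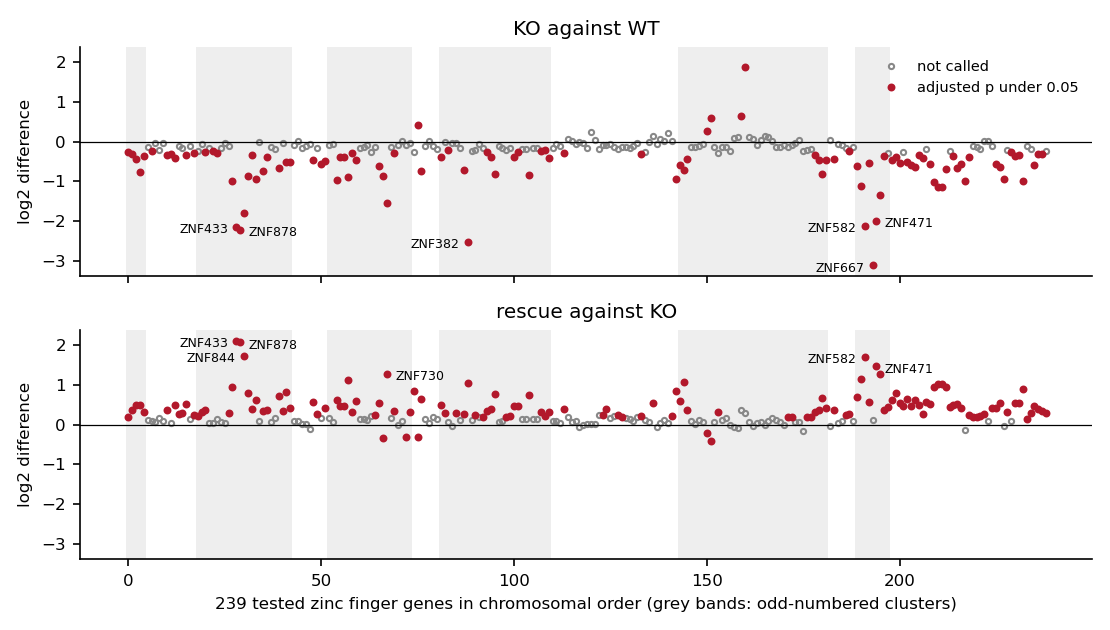
Log2 differences in bases under peaks (+ 200) at the 239 tested loci, for KO against WT above and rescue against KO below, with genes in chromosomal order on the horizontal axis and filled points for an adjusted p under 0.05 by limma. Called genes lie mostly below 0 in the upper panel (101 lower, 5 higher) and above 0 in the lower panel (131 higher, 5 lower), and the 2 panels share the KO libraries.

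Most promoter peaks stayed in place and were narrower in KO at the median. A promoter peak was present in 215 to 216 of the 251 genes in WT, 203 to 204 in KO1, 212 to 213 in KO2, 210 to 212 in Rescue1 and 215 in each Rescue2 library. At the 201 promoters with a peak in all 15 libraries, the median was 771 to 913 bases in WT, 682 to 722 in KO and 780 to 881 in rescue libraries. Over the 13101 such promoters of all genes it was 824 to 937 in WT and 760 to 841 in KO, and over the 707 of other genes of chromosome 19 it was 712 to 828 and 649 to 725, with WT and KO overlapping in both. Of the 1222 other genes of chromosome 19, 804 to 818 had a promoter peak in WT, 747 to 753 in KO1 and 757 to 784 in KO2. In the promoter window 214 genes were tested, and 49 (22.9%) were lower in KO and 0 higher by limma, against 6.06% and 3.58% of all genes, with 1 higher at an unadjusted p under 0.05. Without WT replicate 1, which had the longest WT peak list, 32 were lower. Between rescue and KO, 65 were higher and 2 lower, against 9.66% and 3.99%. ZNF180 had the smallest p among promoters above WT, with a log2 difference of 0.15 (SE 0.06, adjusted p = 0.171). ZNF628 had the smaller p of the 2 promoters lower in rescue than in KO, by 0.40 (SE 0.12, adjusted p = 0.0378). Neither of the 2 passed with a replicate block, without the filter, or without any 1 of the KO1 libraries, KO2 replicate 2 or 3, or Rescue2 replicate 1 or 2. In the body window, which leaves out the promoter, only 81 zinc finger genes were tested. Of these, 26 were lower and 7 higher in KO, against 12.1% and 23% of all genes. In rescue against KO, 38 were higher and 4 lower, against 25.3% and 9.34%. Of the other genes of chromosome 19, 11.8% of promoters were lower and 0.708% higher in KO, and 13.6% higher and 2.97% lower in rescue than in KO. Their bodies gave 25.6% lower and 12.1% higher in KO, and 37.9% higher and 3.48% lower in rescue than in KO.

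**Figure D3:**
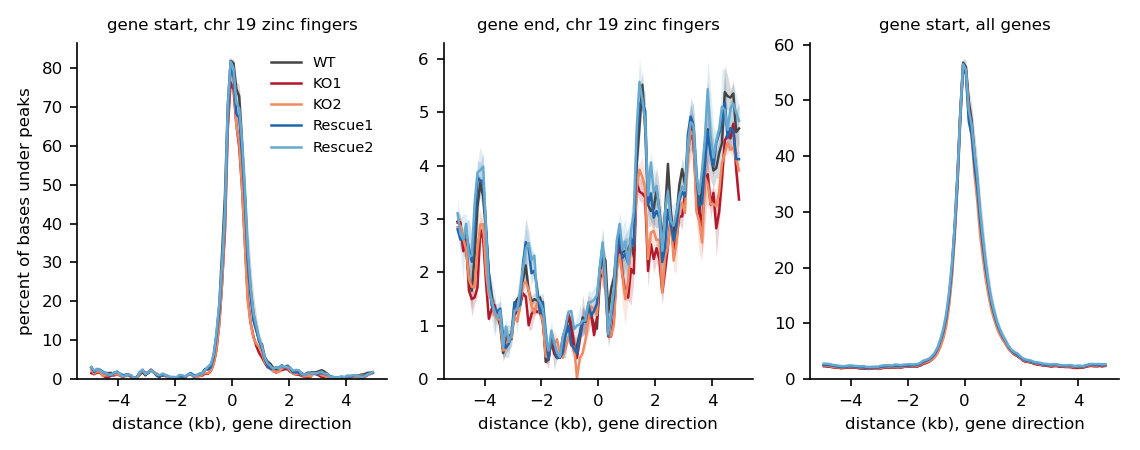
Percent of bases under peaks by distance from the gene start and the gene end, in 100 bp steps in the direction of the gene, for the 251 zinc finger genes and for all protein-coding genes; lines are the means of 3 libraries and bands their range, and the 3 vertical axes differ. Just upstream of the start of the zinc finger genes the coverage was 81.9% in WT, 76.4% in KO1, 79.6% in KO2, 79.9% in Rescue1 and 81.7% in Rescue2, against 56.8% in WT and 56.3% in KO1 over all genes.

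At 11 promoters the peak was present in all WT libraries and absent from all KO1 libraries. These were singled out after their values were seen. At 7 of them (ZNF763, ZNF433, ZNF844, ZNF490, ZNF582, ZNF471 and ZNF549) KO2 had a narrower peak in all 3 libraries, and at the other 4 (ZNF529, ZNF382, ZNF667 and ZNF135) KO2 had none.

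ZNF667 lost its promoter peaks in both KO clones and did not regain them. Its promoter held 1227, 1033 and 1079 bases in WT, 0 in all 6 KO libraries, 0 in Rescue1, and 127, 0 and 0 in Rescue2. Only 1 rescue library therefore showed any peak there, and a narrow one. The ZNF135 promoter held 547, 446 and 477 bases in WT and 0 in all 12 KO and rescue libraries, and its locus was not tested because the mean fell under the filter. The 250 bases before its start, at chr19:58058989-58059238 on the plus strand (RefSeq, GRCh38.p14), are shown because no other promoter of the set had a peak in all WT libraries and in no other library. They hold 24 CpG dinucleotides, and capitals mark a GC box (GGGCGG).
ZNF135: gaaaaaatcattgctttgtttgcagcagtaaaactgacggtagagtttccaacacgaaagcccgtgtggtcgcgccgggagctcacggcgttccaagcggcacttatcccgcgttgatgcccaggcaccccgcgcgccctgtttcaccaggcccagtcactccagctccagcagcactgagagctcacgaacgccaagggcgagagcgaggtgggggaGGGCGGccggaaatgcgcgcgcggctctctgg

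ZNF382 and ZNF529 start head to head and share 1 promoter region, so their promoter values count the same peak. ZNF382, described as a tumour suppressor that is silenced by promoter methylation in cancers, held 1058, 983 and 726 promoter bases in WT, 0 in all KO libraries, 127, 0 and 131 in Rescue1 and 355, 612 and 309 in Rescue2. The rescue values lay below every WT value, and the promoter difference of rescue from KO was 1.05 (SE 0.14, adjusted p = 0.000211), with the 2 rescue clones differing by -1.14 at the locus (Rescue1 against Rescue2, SE 0.23, adjusted p = 0.00623).

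ZNF471 had the smallest adjusted p of the promoters lower in KO, and its locus window shares peaks with that of its neighbour ZFP28, which encodes a KRAB zinc finger protein. The ZNF471 locus held 2276, 2130 and 1820 bases in WT, 122, 80 and 86 in KO1, 868, 821 and 968 in KO2, 869, 916 and 969 in Rescue1 and 2037, 2013 and 1942 in Rescue2. KO differed from WT by -2.00 (SE 0.09, adjusted p = 1.39e-13) and rescue from KO by 1.47 (SE 0.08, adjusted p = 1.51e-12), but Rescue1 held as many bases as its parent KO2 and its promoter window held none. At ZFP28 the locus held 1132, 1189 and 931 bases in WT, 80 to 122 in KO1, 606 to 679 in KO2, 869 to 969 in Rescue1 and 1095 to 1168 in Rescue2.

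ZNF582, whose promoter methylation is used as a marker of cervical cancer, held 1245, 1215 and 1250 bases at its locus in WT, 0, 80 and 82 in KO1, 196, 274 and 222 in KO2, 1401, 1226 and 1367 in Rescue1 and 632, 507 and 495 in Rescue2. KO was lower than WT by 2.13 (SE 0.13, adjusted p = 1.19e-11) and rescue higher than KO by 1.70 (SE 0.10, adjusted p = 2.47e-11). At this locus the rescue clones did not overlap, and it was Rescue1 that reached WT, where at ZNF471 it was Rescue2. The ZNF582 promoter alone held 542 to 559 bases in WT, 537 to 647 in Rescue1 and 495 to 556 in Rescue2, so there both clones overlapped WT. A lost region elsewhere in the window, at the promoter of another gene, had a peak in 3 rescue libraries.

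A stretch in the cluster that runs from ZNF653 to ZNF791 held the other large differences. At the ZNF844 locus the values were 1204, 1079 and 1196 bases in WT, 0 in all KO1 libraries, 636, 537 and 537 in KO2, 977, 988 and 1175 in Rescue1 and 1078, 1317 and 1060 in Rescue2. At ZNF433 they were 1086, 939 and 901 in WT, 0 in KO1, 88, 142 and 218 in KO2, 697, 802 and 811 in Rescue1 and 1184, 1285 and 974 in Rescue2. At ZNF878 they were 2337, 2035 and 2121 in WT, 0, 0 and 183 in KO1, 747, 814 and 950 in KO2, 1775, 1831 and 1838 in Rescue1 and 2111, 2180 and 1886 in Rescue2. At all 3 loci, whose windows partly overlap, both KO clones lay below every WT and rescue library. The KO differences were -1.79 (SE 0.11), -2.16 (SE 0.13) and -2.22 (SE 0.14), and those of rescue from KO 1.72 (SE 0.09), 2.12 (SE 0.11) and 2.07 (SE 0.12), on the log2(bases + 200) scale, which understates changes at loci with few bases. The 250 bases before the ZNF844 start, at chr19:12064481-12064730 on the plus strand (RefSeq, GRCh38.p14), are shown as a promoter that KO1 lacked and KO2 kept in a narrower form. They hold 13 CpG dinucleotides, with a GC box in capitals.
ZNF844: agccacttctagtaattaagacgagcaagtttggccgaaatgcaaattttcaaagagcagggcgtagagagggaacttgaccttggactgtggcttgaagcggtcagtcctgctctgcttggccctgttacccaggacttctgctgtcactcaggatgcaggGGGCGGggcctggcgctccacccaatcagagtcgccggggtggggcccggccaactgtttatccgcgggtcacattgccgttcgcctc

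**Figure D4:**
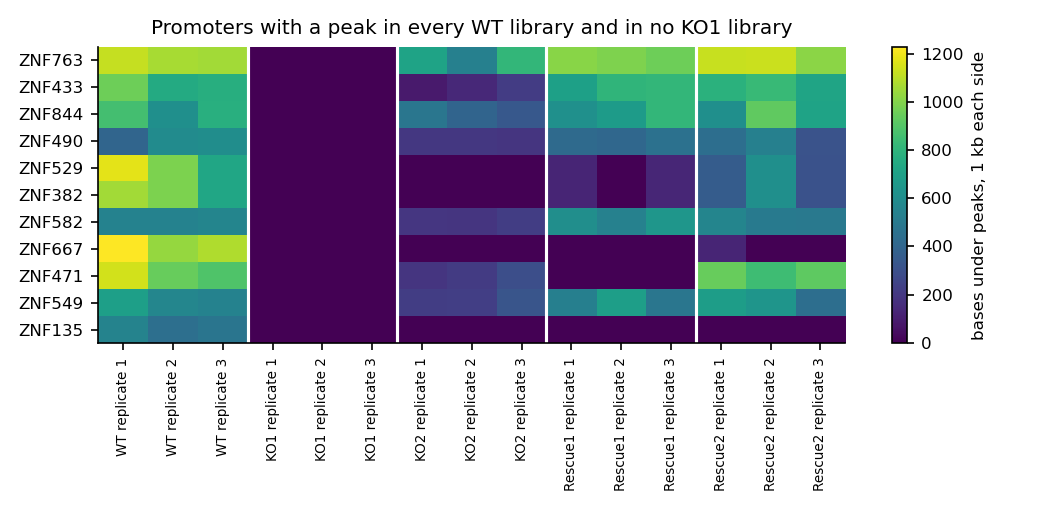
Bases under peaks within 1 kb of the gene start (colour) at the 11 promoters with a peak in every WT library and in no KO1 library, with genes as rows in chromosomal order and the 15 libraries as columns. KO2 kept a peak at 7 of the 11, Rescue1 lacked one in all its libraries at ZNF667, ZNF471 and ZNF135, and ZNF135 had none outside WT.

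Promoters of the set differ in composition from other promoters. Of the 251 genes, 219 matched the RefSeq promoter table by symbol. In the 250 bases before the start, the median number of CpG dinucleotides was 16 for the zinc finger genes and 11 for all 27305 promoters. The motif CCGGAAG of the ETS factors, searched on both strands, was in 31.5% of zinc finger promoters and 8.82% of all. The GC box GGGCGG was in 64.4% and 42.3%, the YY1 motif GCCATNTT in 7.76% and 3.91%, the CRE motif TGACGTCA in 2.28% and 1.77%, and the NRF1 motif GCGCATGC in 3.65% and 2.81%. The 44 matched promoters that were lower in KO held the ETS motif in 40.9% and a median of 16.5 CpG, against 31.5% and 15 in the 146 tested and not lower. These shares are descriptions of letters in a window, and paralogous promoters share sequence.

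Single peak regions were then followed across the libraries. Peaks of all libraries were merged into 295008 regions found in at least 2 libraries, of which 798 lay at zinc finger loci. A region was called lost in KO when it overlapped a peak in all 3 WT libraries and in none of the 6 KO libraries, and the other calls were made in the same way, without a test. At zinc finger loci 54 regions (6.77%) were lost in KO and 6 (0.752%) gained, against 2.48% and 4.79% of all regions. In rescue against KO 40 regions were gained and none lost, or 5.01% and 0%, against 0.91% and 1.24%. The 24 regions lost in KO and found again in all 6 rescue libraries made up 3.01% of the regions at zinc finger loci, against 0.314% of all regions. None of the 6 gained regions was reversed in every rescue library, against 2413 of the 14118 regions gained in the genome, which are 0.818% of all regions.

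Of the 54 lost regions, 26 lay in introns of the zinc finger genes, 16 in their flanks, 8 in their promoters, 3 in exons and 1 at the promoter of another gene. Among those in promoters, the ones at ZNF492, ZNF829 and ZNF568, ZNF865 and ZNF550 lay beside another promoter peak that all KO libraries kept. Introns and flanks lost 11.2% and 9.47% of their regions, and zinc finger promoters 2.68%. In the rescue libraries 24 of the 54 had a peak in all 6, 11 had one in none, and the remaining 19 in 1 to 5. Among the 24 regained regions only 1, in the promoters of ZNF829 and ZNF568, lay in a promoter of the set.

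The regained regions that ranked highest by fold enrichment, averaged over the libraries with a peak there, were in or near ZNF793, ZNF20 and ZNF844, ZNF473, ZNF714, ZNF730, ZNF444, ZNF497, ZNF486, ZNF324, ZNF527, ZNF85 and ZNF805. ZNF473, whose product takes part in histone pre-mRNA processing, held 2836, 2458 and 2397 bases at its locus in WT, 1087 to 1259 in KO1, 1289 to 1360 in KO2, 2410 to 2770 in Rescue1 and 1975 to 2315 in Rescue2, with a KO difference of -0.95 (SE 0.08, adjusted p = 3.49e-09). Its promoter did not follow, at -0.06 (SE 0.07, adjusted p = 0.687), and most of the difference was in the body, which held 925 to 1051 in WT and 0 to 82 in KO, with a smaller share in the flank. ZNF714 likewise kept 598 to 689 promoter bases in all KO and 621 to 675 in all WT libraries, while its locus held 1407 to 1722 in WT, 598 to 638 in KO1, 805 to 840 in KO2 and 1612 to 2175 in rescue. ZNF730 fell from 1966 to 2280 bases in WT to 443 to 749 in KO and held 1601 to 1972 in rescue. ZNF444 has no peak at its annotated start in any library, and its locus held 1607 to 2218 bases in WT, 714 to 855 in KO and 1807 to 2138 in rescue. At none of these 4 loci did a KO library reach a WT or rescue library.

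Of the remaining named loci with a regained region, ZNF497 changed by more than ZNF473 and the others listed here by less. The KO differences were -0.85 at ZNF793, -0.99 at ZNF497, -0.50 at ZNF486, -0.40 at ZNF805, -0.38 at ZNF85, -0.31 at ZNF324 and -0.26 at ZNF527. The rescue differences from KO lay between 0.36 and 0.90, and all 14 had an adjusted p under the 0.05 threshold by limma. These loci and those of the paragraph above were named for a region absent from all KO libraries and present in all others. Their windows hold that region, so the choice set the direction and the p-values are no separate evidence. The KO calls at ZNF324 (without WT replicate 1, -0.19), ZNF85 (without WT replicate 1 or 2, -0.29 and -0.36) and ZNF527 (without WT replicate 1 or 3 or KO1 replicate 1 or 3, -0.22 to -0.26) were lost when 1 library was left out.

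Of the regions lost, 4 short ones that overlap no annotated exon are shown, 3 regained in all rescue libraries and 1 in none, on the plus strand of hg38. Capitals mark AP-1 motifs (TGANTCA, both strands) and GC boxes (GGGCGG). The first is in the ZNF486 intron at chr19:20180072-20180298, the second in the flank of ZNF324 and ZNF324B at chr19:58460166-58460362 and the third in the ZNF787 intron at chr19:56091243-56091535. The region that stayed without a peak is in the flank of ZNF302 at chr19:34691313-34691518. The motifs do not separate these classes over all short lost regions, since the one at ZNF100, in no rescue library, holds an AP-1 motif and those at ZNF565, ZNF875 and that shared by ZNF844 and ZNF20, in all 6, hold none.
ZNF486, regained: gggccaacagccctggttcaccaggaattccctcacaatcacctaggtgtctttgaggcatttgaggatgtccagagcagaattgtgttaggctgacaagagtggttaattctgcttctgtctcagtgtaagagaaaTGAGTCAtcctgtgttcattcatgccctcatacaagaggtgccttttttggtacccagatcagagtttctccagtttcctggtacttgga
ZNF324, regained: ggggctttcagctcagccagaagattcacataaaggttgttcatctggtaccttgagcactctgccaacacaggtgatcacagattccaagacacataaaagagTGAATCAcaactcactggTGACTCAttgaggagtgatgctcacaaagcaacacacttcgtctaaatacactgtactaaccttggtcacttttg
ZNF787, regained: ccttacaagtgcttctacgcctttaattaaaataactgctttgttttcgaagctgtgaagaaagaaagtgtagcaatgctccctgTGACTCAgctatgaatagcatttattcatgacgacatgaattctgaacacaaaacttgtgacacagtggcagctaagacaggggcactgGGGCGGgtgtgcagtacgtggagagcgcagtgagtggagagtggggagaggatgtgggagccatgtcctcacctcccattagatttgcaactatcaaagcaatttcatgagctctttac
ZNF302, not regained: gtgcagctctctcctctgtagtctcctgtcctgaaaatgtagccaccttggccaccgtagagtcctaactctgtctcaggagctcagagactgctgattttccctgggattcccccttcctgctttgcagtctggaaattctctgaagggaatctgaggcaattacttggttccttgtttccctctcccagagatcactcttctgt

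In the central 200 bases, the motif of AP-1, the dimers of JUN and FOS proteins, was found in 50% of the 24 regained regions, 31.5% of the 54 lost regions and 17.3% of all 798 regions at zinc finger loci. Outside promoters, where AP-1 motifs are more common, the shares were 37.8% of the 45 lost regions and 26.4% of all 466. The ETS motif was in none of the 24 regained regions and in 9.4% of all 798. Outside promoters, where it is rarer, it was in 2.22% of the 45 lost regions and 3.86% of all 466.

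A part of this can be read in libraries that the call did not use. Regions called lost from WT and KO1 alone numbered 94 at zinc finger loci and 14154 in all. Of the 94, 29.8% to 39.4% overlapped a peak in the KO2 libraries, 67% to 70.2% in Rescue1 and 74.5% to 81.9% in Rescue2. Over all regions lost in this way the ranges were 26.1% to 38.6%, 41.2% to 44.8% and 45.2% to 63%. The KO2 ranges of the 2 sets overlapped, and the rescue ranges did not, with every rescue library higher at the zinc finger loci.

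Few zinc finger loci moved upward. ZNF578 had no base under peaks in WT, 80 to 173 in KO1, 1066 to 1625 in KO2, 591 to 682 in Rescue1 and 545 to 957 in Rescue2, so most of its gain was in KO2 and its descendants kept part of it. ZNF534 held 90, 0 and 0 bases in WT, 0 in KO1, 234 to 631 in KO2 and 178 to 403 in rescue. Its call (adjusted p = 0.029 by limma) rested on KO2, with -0.18 in KO1 alone, and was lost without WT replicate 2 or 3 (0.55). ZNF534 passed the filter on the mean of all libraries only through its KO2 and rescue values. ZNF135 and ZNF98, with bases in every WT library and none in KO, did not pass it. Without the filter, 5 zinc finger loci were higher and 104 lower in KO. ZNF841 held 876 to 1000 bases in WT, 1323 to 1762 in KO and 898 to 1246 in rescue, with 0.59 (SE 0.10, adjusted p = 7.95e-05) for KO against WT and -0.42 (SE 0.08, adjusted p = 0.000325) for rescue against KO. ZNF432, which overlaps the same gained region, was higher by 0.28 (SE 0.07) and then lower by 0.22 (SE 0.06), and ZNF507 higher by 0.42 (SE 0.09) and lower by 0.30 (SE 0.07). At ZNF841 and ZNF432 the promoters went the other way, at -0.26 and -0.25 in KO, and the gain was in the body, where ZNF841 held 90 to 118 bases in WT and 689 to 1001 in KO. With equal lists of peaks both KO calls were lost, at 0.26 and 0.14. ZNF726 and ZNF492 were lower in rescue than in KO, by 0.30 (SE 0.08) and 0.35 (SE 0.12). The call at ZNF726 was lost with no flank (-0.03) and against KO2 alone, the parent clone (-0.23). ZNF492 had fallen in KO already, from 732 to 749 bases in WT to 233 to 417 in KO, and held 0 to 122 in Rescue1 and 338 to 433 in Rescue2. The rescue call at ZNF492 (adjusted p = 0.0343) rested on Rescue1, with 0.22 for Rescue2 alone, and was lost when any of 6 libraries was left out (KO1 replicate 1 or 3, KO2 replicate 1 or 2, Rescue1 replicate 1 or Rescue2 replicate 2, from -0.35 to -0.24).

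Genes of the set with a studied function lay on both sides of the threshold. ZNF91 and ZNF93, which repress SVA and LINE retrotransposons, were lower in KO by 0.28 (SE 0.09, adjusted p = 0.02, lost without WT replicate 2 at -0.23) and 0.45 (SE 0.10, adjusted p = 0.000862) and higher in rescue by 0.35 and 0.57. ZNF85 is given above. ZNF274, which binds the last exons of other zinc finger genes and recruits SETDB1 there, held 918 to 1136 bases in WT, 746 to 935 in KO and 834 to 979 in rescue, a KO difference of -0.26 (SE 0.09, adjusted p = 0.0415) that was lost when any of 7 libraries was left out (WT replicate 1 or 3, KO1 replicate 1 or 2, KO2 replicate 2 or Rescue1 replicate 1 or 2), with values from -0.21 to -0.27. ZNF331, an imprinted gene, was lower in KO by 0.47 (SE 0.09) and higher in rescue by 0.41 (SE 0.08). ZNF350, a partner of BRCA1, was at -0.13 (SE 0.13, adjusted p = 0.49), with KO1 at 484 to 736 bases and KO2 at 911 to 1449. ZFP36 was at -0.16 (SE 0.07, adjusted p = 0.122) and ZNF180 at 0.05 (SE 0.09, adjusted p = 0.708).

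A list of 28 genes held the co-repressors of KRAB zinc finger proteins together with wider heterochromatin machinery, including DNA methyltransferases, KDM4 demethylases, ATRX, DAXX and SETD2 itself. Of the 28 loci, 6 were higher and 3 lower in KO than in WT, and 5 were higher and 0 lower in rescue than in KO by limma (0 also at an unadjusted p under 0.05), against the same 15.1%, 13.2%, 28.2% and 6.83% of all genes. In rescue against WT 11 were higher and 0 lower, against 21.8% and 4.14% of all genes. TRIM28 was at 0.03 (SE 0.07, adjusted p = 0.797) and SETDB1 at -0.10 (SE 0.09, adjusted p = 0.484). EHMT1, an H3K9 methyltransferase, held 6000 ± 557 bases in WT (n = 3), 3503 ± 470 in KO (n = 6) and 7747 ± 1020 in rescue (n = 6), with -0.75 (SE 0.11, adjusted p = 9.68e-06) and 1.10 (SE 0.09, adjusted p = 1.62e-09). Of the subunits of the HUSH silencing complex, MPHOSPH8 was higher in KO by 0.45 (SE 0.08, adjusted p = 0.000172) and PPHLN1 by 0.23 (SE 0.08, adjusted p = 0.0266). TASOR differed by -0.37 (SE 0.10, adjusted p = 0.00529).

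Members less than 250 kb apart formed 12 clusters of at least 5 genes, holding 234 of the 251. In 8 of the 12 every KO library held fewer bases than every WT library and every rescue library more than every KO library. Of all bins of 1 Mb in the genome, 3.95% met the first pattern, 5.27% the second and 2.62% both, and of the 56 bins of chromosome 19, which include those holding the clusters, 19 met both. Bins and clusters differ in length. With libraries scaled to the length under peaks, 7 clusters met both, and the cluster from ZNF302 to ZNF792 no longer did.

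The cluster from ZNF787 to ZNF835 (chr19, 56087366 to 56671783, 10 genes) changed most in proportion. It held 13107, 11714 and 11582 bases in WT, 4304, 4461 and 4370 in KO1, 5677, 6112 and 6306 in KO2, 9802, 9198 and 10033 in Rescue1 and 10914, 10461 and 9581 in Rescue2. KO stood at 42.9% of WT and rescue at 82.4%, with no rescue library reaching a WT library. It includes ZNF582, ZNF667, ZNF471, ZFP28, ZNF444 and ZNF787. Of its 9 tested genes 8 were lower in KO and 8 higher in rescue than in KO, against 13.2% and 28.2% of all genes. The clusters were picked by the same values, so such counts here and below only describe them and are no test.

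The largest cluster, from ZNF264 to ZNF446 near the end of the long arm (57191500 to 58481230, 43 genes), held 39325 to 45687 bases in WT, 28639 to 31583 in KO and 39557 to 46028 in rescue, which is 70.8% and 101% of WT. There 28 of 41 tested genes were lower in KO and 37 were higher in rescue. The cluster from ZNF653 to ZNF791 (11483427 to 12640098, 25 genes) stood at 71.2% of WT in KO and 99.8% in rescue, with KO1 at 65.6% and KO2 at 76.8%. The small cluster from ZNF554 to ZNF77 (2819868 to 2944971) stood at 73.2% and 95.6%, and all 5 of its genes were lower in KO and higher in rescue.

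The other 4 clusters with the pattern were those from ZNF737 to ZNF254 (20535825 to 24129968, 29 genes, 76.8% of WT in KO), from ZNF565 to ZNF573 (36182276 to 37817300, 29 genes, 78.2%), from ZNF302 to ZNF792 (34677639 to 34964229, 5 genes, 80.5%) and from ZNF317 to ZNF846 (9140397 to 9793180, 11 genes, 80.9%). Their rescue means lay between 98.2% and 101.1% of WT. In the first of them the clones differed, with 24591 to 25380 bases in Rescue1, below every WT library (26225 to 29965), and 28348 to 32666 in Rescue2. The cluster from ZNF737 to ZNF254 had the most regions lost, 14 of 103, of which 5 were regained.

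Neither condition of the pattern was met by the clusters from ZNF101 to ZNF486 (83.6% of WT in KO), from ZNF628 to ZNF581 (91.3%), from ZNF175 to ZNF331 (92.3%, 39 genes) and from ZNF575 to ZNF180 (94.2%, 23 genes). In the first of these KO1 stood at 76.2% of WT and KO2 at 91.1%. Just outside the rule, the cluster from ZNF628 to ZNF581 had 12581 bases in its highest KO library and 12551 in its lowest WT library. Just inside the rule, the cluster from ZNF302 to ZNF792 had 4894 bases in the highest KO and 5391 in the lowest WT library. The cluster from ZNF175 to ZNF331 held 4 of the 5 loci that were higher in KO, ZNF578, ZNF534, ZNF841 and ZNF432. All 5 were outside the clusters that lost and regained peaks, which were chosen by lower values in KO, so this is partly built in. A region gained in KO did lie in the cluster from ZNF737 to ZNF254, in an intron of ZNF675. The ZNF675 locus held 2367 to 3112 bases in WT, 3741 to 4144 in KO1 and 1531 to 2170 in KO2.

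**Figure D5:**
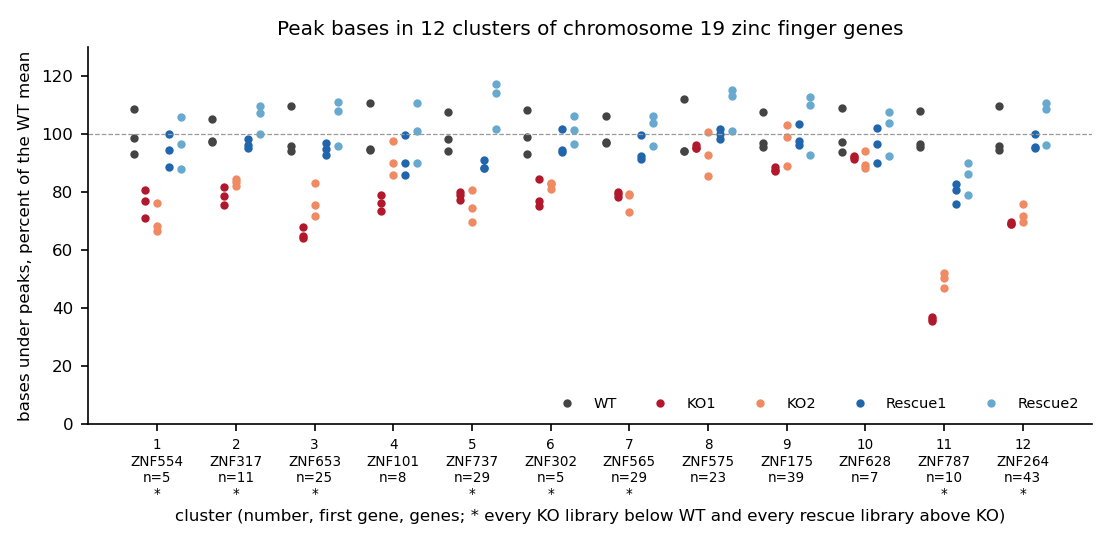
Bases under peaks in the 12 clusters, as a percent of the cluster's WT mean, for each of the 15 libraries (points, 3 per line), with the first gene and the number of genes under each; the vertical axis starts at 0. The cluster that starts at ZNF787 lies lowest in KO (42.9% of WT), and 8 clusters (asterisks) have every KO library below every WT library and every rescue library above every KO library.

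KO1 was lower than KO2 at 15 of the 239 tested genes and higher at 2, against 2.41% and 0.585% of all genes, and Rescue1 was lower than Rescue2 at 8 and higher at 1, against 3.2% and 0.222%. The count of 8 was 21 without Rescue2 replicate 3 and 5 without Rescue1 replicate 2 or Rescue2 replicate 2. KO1 lay furthest below KO2 at ZNF578 (-2.23, SE 0.18), ZNF878 (-2.06, SE 0.17), ZNF844 (-1.94, SE 0.12), ZNF471 (-1.88, SE 0.11), ZNF534 (-1.64, SE 0.25), ZFP28 (-1.53, SE 0.12) and ZNF577 (-1.50, SE 0.10). ZNF675 differed in both pairs, with 1.04 for KO1 against KO2 (SE 0.11) and -1.69 for Rescue1 against Rescue2 (SE 0.11). Of the promoters where KO2 kept a narrower peak, those of ZNF763, ZNF433, ZNF844, ZNF490, ZNF582 and ZNF549 had wider peaks in rescue than in KO2, and that of ZNF471 had a peak in all 3 Rescue2 libraries and in no Rescue1 library. Of those where KO2 had none, the shared promoter of ZNF529 and ZNF382 had a peak in 5 of the 6 rescue libraries, that of ZNF667 in 1 and that of ZNF135 in 0.

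Neighbouring loci share peaks, so the gene counts are not counts of independent events. The genes are close paralogs, and how reads that fit more than 1 copy were treated is not given in the sources used here.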

How the data were processed

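ATAC-seq was analysed from the deposited peak lists of 15 RPTEC libraries (WT, KO1, KO2, Rescue1 and Rescue2, 3 each). The authors aligned reads to hg38 with BWA (0.7.17 in the submitters' processing notes) and called peaks per library with MACS2 2.2.7.1. Each deposited list gives positions, an integer score, a fold enrichment and the −log10 p-value and −log10 q-value of each peak. It holds no read counts, so depth is unknown and no interval for counting error is given. Duplicate removal, blacklists and the treatment of reads with several matches are not given in the sources used here.

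Gene models came from GENCODE 44, and all 99 contigs of the lists are in the reference. Bases under merged peaks were summed per protein-coding gene and library in the locus (body plus 10 kb each side), the promoter (1 kb each side of the start) and the body outside the promoter. Log2(bases + 200) was fitted with limma 3.58.1 (R 4.3.3, trend in the mean, 5 group means, clones weighed equally) over genes averaging at least 200 bases, with Benjamini-Hochberg adjustment over all genes tested and a two-sided threshold of 0.05. The fit was tested on simulated data. Regions were merged peaks found in at least 2 libraries, with an overlap of 1 bp as presence. Readthrough genes (3) were left out.

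The genes, lists and clusters were chosen with earlier results of these data known. Genes named were the 6 called in each direction with the smallest adjusted p at the locus (filled to 4 where fewer were called), the smallest p per direction at the promoter, up to 12 genes with a region lost and regained, and 10 genes of known function. Alternatives were scaling to the length under peaks, the 150000 strongest peaks, a −log10 q of at least 5, pseudocounts of 50 and 1000, no filter, no trend, a replicate block, other windows, 1 clone alone and each library left out.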

Additional observations from a re-analysis of the deposited data

Results flagged for a closer look

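The largest differences between clones of one kind were tested at the named loci by limma over all genes. KO1 was below KO2 at ZNF578 (-2.23), ZNF878 (-2.06), ZNF844 (-1.94), ZNF471 (-1.88), ZNF534 (-1.64), ZFP28 (-1.53), ZNF433 (-0.79), ZNF582 (-0.78) and ZNF350 (-0.72), in log2(bases + 200), with adjusted p from 2.48e-11 at ZNF471 to 0.00398 at ZNF350. At ZNF350 KO1 held 484 to 736 bases, below every WT library (902 to 968), and KO2 held 911 to 1449, which overlapped WT.

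Rescue1 was below Rescue2 at ZNF382 (-1.14), ZNF492 (-1.13) and ZNF471 (-0.98) and above it at ZNF582 (1.04), with adjusted p from 4.01e-06 to 0.00623. Both rescue clones derive from KO2, which held 0 bases at ZNF382, 344 to 417 at ZNF492, 821 to 968 at ZNF471 and 196 to 274 at ZNF582.

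In the cluster from ZNF565 to ZNF573, 1 of the 6 KO libraries stood apart from the rest, KO2 replicate 2 with 23556 bases against 25256 to 25782 in the other 5. Chance flags about 1 in 20 such sets, and 26 were examined. The cluster kept its pattern without this library.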

How the results depend on the processing

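The lower values in KO and the higher values in rescue than in KO kept their direction under every alternative run for the counts at the locus, promoter and body. With libraries scaled to the length under peaks, the zinc finger genes lower in KO numbered 179 at the locus (against 40.4% of all genes), 125 at the promoter and 47 in the body. In rescue against WT 5 were higher and 78 lower, against 14.3% and 27.7% of all genes. On the same scale KO1 against KO2 gave 6 higher and 24 lower and Rescue1 against Rescue2 2 higher. With equal lists of 150000 peaks the numbers were 2 higher in KO, 4 lower in rescue than in KO2, 8 higher in rescue than in WT and 4 higher in KO1 than in KO2, which the stricter q threshold also gave (4). Without the filter they were 45 lower in KO and 65 higher in rescue in the body, 1 higher in KO and 0 lower in rescue at the promoter, and 1 higher in KO1 than in KO2, as without the trend (1). Other windows gave 69 higher in rescue than in KO2 with no flank, 0 higher in Rescue1 than in Rescue2 with no flank or 5 kb, and 43 promoters higher in rescue at 500 bp.

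Taking 1 clone alone moved more. With KO1 alone 94 regions were lost, 56 lost and regained, 82 gained in rescue against 1 lost there, 10 gained in KO, and 1 promoter was lower in rescue. With KO2 alone 21 regions were gained, 7 lost in rescue and 4 gained and reversed, 40 promoters and 24 bodies were higher and 1 promoter lower in rescue. With Rescue1 alone 68 loci were higher than in KO2 and 7 higher than in WT, 37 promoters were higher, 4 regions were lost in rescue and 1 was gained and reversed. With Rescue2 alone 3 loci were lower than in KO and 3 than in KO2, 8 lower than in WT, 0 promoters lower, 72 regions gained and 1 lost in rescue. Presence over 50% of a region, the stricter threshold and equal lists gave 3, 4 and 4 regions lost in rescue and 1 each gained and reversed. ZNF534 turned to -0.18 with KO1 alone, ZNF492 to 0.22 with Rescue2 alone, and ZNF578 and ZNF350 to -0.82 and -0.36 in rescue against KO2 alone. The causes were not tested.

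Leaving out 1 library gave 80 to 108 loci lower and 4 to 6 higher in KO, 115 to 146 higher and 4 to 5 lower in rescue than in KO, 75 to 121 higher and 3 to 7 lower than in KO2 (3 without KO2 replicate 1 or 3), and 10 to 23 higher and 11 to 17 lower than in WT (10 and 11 higher without WT replicates 2 and 3). KO1 against KO2 gave 1 to 3 higher (1 without any of 5 KO libraries) and 13 to 18 lower, and Rescue1 against Rescue2 1 higher and 5 to 21 lower (5 without Rescue1 replicate 2 or Rescue2 replicate 2, 21 without Rescue2 replicate 3). At promoters 32 to 52 were lower in KO, 0 higher, and 47 to 76 higher and 0 to 2 lower in rescue, the last count falling to 0 or 1 without most single libraries. In bodies 21 to 28 were lower and 4 to 9 higher in KO (4 without WT replicate 3) and 36 to 41 higher and 3 to 5 lower in rescue. Regions lost numbered 54 to 69, gained 6 to 8, gained in rescue 40 to 45, lost in rescue 0 to 1, lost and regained 24 to 27 and gained and reversed 0 to 1, and 8 clusters met the pattern each time.

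Replicate numbers did not pair the libraries (correlations of same-numbered deviations from -0.163 to 0.0441 over 30 pairs). With a replicate block 97 loci were lower in KO and 128 higher in rescue, and the count of promoters lower in rescue went from 2 to 0. Of 1874 values of named genes under an alternative, 1801 kept their side of the threshold. KO calls of named genes were lost at ZNF841, ZNF432, ZNF85 and ZNF91 with equal lists, at ZNF91 at the stricter threshold, at ZNF324 and ZNF527 with a flank of 5 kb, at ZNF324, ZNF527, ZNF805 and ZNF274 with no flank, at ZNF324, ZNF527, ZNF274, ZNF91 and ZNF331 with KO1 alone and at ZNF527, ZNF805, ZNF274 and ZNF93 with KO2 alone. Rescue calls were lost at ZNF726 and ZNF527 with no flank, at ZNF726 and ZNF486 with KO2 alone and at ZNF492 and ZNF331 with KO1 alone. They were also lost at ZNF85, ZNF91 and ZNF382 with Rescue1 alone, at ZNF432 with Rescue2 alone and at ZNF492 with a pseudocount of 1000. Clusters that met the pattern numbered 8 at a distance of 500 kb, with equal lists (ZNF101 to ZNF486 in, ZNF554 to ZNF77 out) and at the stricter threshold. Without read depth, a narrower peak and a shallower library could not be separated within a library.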
